A study of Mus musculus with 4 samples.

Results

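The 10 genes described here encode small leucine-rich proteoglycans (Bgn, Dcn, Lum, Fmod, Ogn, Prelp, Aspn, Omd and Podn) and the large matrix proteoglycan versican (Vcan). They form a family named by gene symbol, no threshold on a measured value entered the rule, and the family was picked with earlier results of these data known. All 10 were found among the 24063 symbols of the deposited tables. RNA was measured in endothelial cells (ECs) that had been captured from mouse lungs with anti-CD31 magnetic beads, 7 days after unilateral pneumonectomy (PNX) or from sham-operated mice, which underwent thoracotomy without removal of a lung. All mice were C57BL6 by the labels (C57BL6J in the study's methods), 8 weeks old and described as male, and no group carried an engineered allele. The captured cells had been checked by flow cytometry for CD31 and VE-cadherin and for lack of CD45. Each group had 2 libraries and each library pooled the cells of 2 mice, so the p-values measure the spread between 2 pools per group.

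Small leucine-rich proteoglycans are secreted core proteins built of leucine-rich repeats, many of which carry chondroitin, dermatan or keratan sulfate chains. They bind to collagen fibrils, set how thick and how regular the fibrils grow, and hold growth factors such as TGF-β in the matrix. Versican binds hyaluronan and forms a hydrated, loose matrix that is typical of growing or injured tissue. In the lung, most of these genes are known as products of fibroblasts and other mesenchymal cells, and pleural, vascular and myeloid cells can contribute some of them.

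Totals per library, with 1 transcript taken for each symbol, lay between 41367438 and 50952879 counts. The limit that 3 counts set lay between 0.0589 and 0.0725 CPM, which covers counting error only. The libraries of each group were alike, with an average chi-square over genes of 1.74 for sham and 1.51 for PNX. Counting error alone would give about 1, so the pools of a group differed by little more than counting error. The p-values rest on this small spread, which may understate how far mice vary. Any sham library set against any post-PNX library gave an average chi-square of 114 or more. The 44 Y-linked symbols of the tables had no count in any library and Xist had between 29890 and 36875 counts, which goes against the description as male in every library of both groups. The 12 pan-endothelial markers were abundant, with 506437 and 511443 normalized counts (counts scaled to a common library size by TMM) in sum in the sham libraries and 430819 and 432657 after PNX. Of these 12 markers 10 were lower and 1 was higher after PNX at an adjusted p under 0.01 from edgeR. Their median log2 fold change was -0.25, and 27.8% of all genes tested were lower at that threshold. Pecam1, which encodes the CD31 used for capture, was the 1 that did not pass, with means of 90946 and 90400 (log2 fold change -0.01, adjusted p = 0.636 from edgeR). Ptprc, which encodes CD45, had means of 11566 and 11543 (log2 -0.003, adjusted p = 0.905 from edgeR). The fraction also held RNA of other cell types. Sftpc, the surfactant gene of alveolar type 2 cells, had a mean of 171015 normalized counts in sham libraries and 111027 after PNX, against 110259 and 94599 for Cdh5, which encodes VE-cadherin.

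All 10 proteoglycan genes had enough counts to be tested, and none was lost to the filter on low counts. A gene is said to have risen or fallen where edgeR (quasi-likelihood test, Benjamini-Hochberg adjustment over all genes) gave an adjusted p under 0.01, and it was called where the log2 fold change also passed 1 in size. Lum, Vcan, Dcn, Aspn and Podn were called higher after PNX, 5 of 10 genes, where 5.9% of the 16208 genes tested were called higher. None of the 10 was called lower, where 1.66% of all genes were. DESeq2's Wald test gave the same numbers, 5 and 0. At an unadjusted p under 0.05 in edgeR 3 of the 10 were lower, beside 5453 of the 16208 genes tested. With no threshold on the fold, 7 had risen and 3 had fallen, beside 29.3% of all genes that had risen and 27.8% that had fallen. Log2 fold changes ran from -0.71 to 4.26 among the 10 genes with a median of 1.09, beside 0.00 over all genes tested. In bulk RNA, more cells that express a gene and more of its RNA per cell cannot be told apart.

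**Figure D1:**
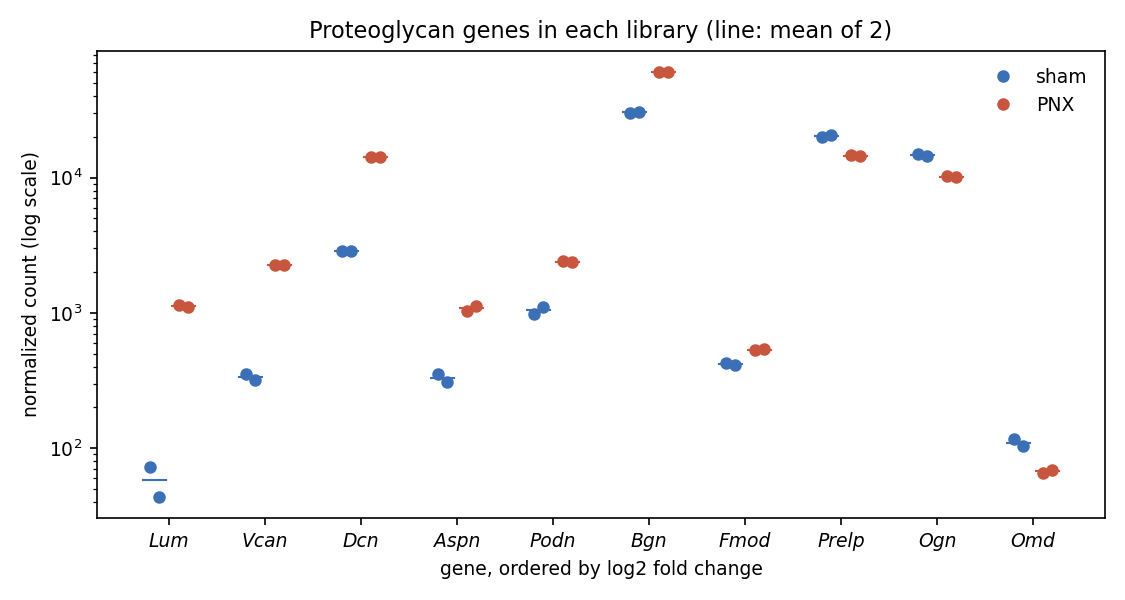
Normalized counts of the 10 proteoglycan genes on a log axis, with 1 point per library, sham in blue and PNX in red, and a short line at the mean of the 2 libraries. Lum runs from 43.8 and 72.5 in sham to 1110 and 1148 after PNX, while Prelp, Ogn and Omd are lower after PNX in both libraries.

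The summed normalized count of the 10 genes was 70341 and 70941 in the sham libraries and 106435 and 106368 after PNX, a rise of 1.51-fold. They took 0.152% and 0.154% of all counts in sham and 0.231% in each post-PNX library. Bgn (mean 30363 in sham and 60129 after PNX) and Dcn (2863 and 14145) gained the most normalized counts. Prelp (20328 and 14526) and Ogn (14789 and 10147.5) lost counts, so the sum does not stand for each gene. For none of the 10 genes did the 2 sham libraries overlap the 2 post-PNX libraries, and the same held for 81.2% of all genes tested, so that non-overlap sets these genes little apart.

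Decorin, biglycan and asporin form class I of the family, whose members bind collagen and TGF-β. Dcn, which encodes decorin, had 2866 and 2859 normalized counts in the sham libraries and 14188 and 14103 after PNX. Its fold change was 4.94 (log2 2.30, standard error 0.025, adjusted p = 3.7e-62 from edgeR). The means were 2863 ± 4.92 (SD, n = 2) in sham and 14145 ± 60.6 (SD, n = 2) after PNX. Both SDs were below what counting error alone gives at such counts. SDs this small, here and below, do not show how far pools of mice vary. Bgn, which encodes biglycan, had 30075 and 30651 normalized counts in sham and 59995 and 60263 after PNX. It rose 1.98-fold (log2 0.99, standard error 0.017, adjusted p = 9.0e-51 from edgeR), just short of the fold threshold. When libraries were scaled to the 12 pan-endothelial markers, its log2 fold change was 1.25 and it was called. Aspn, which encodes asporin, a relative of decorin that also binds collagen, had 353 and 307 normalized counts in sham and 1035 and 1125 after PNX. It rose 3.25-fold (log2 1.70, standard error 0.067, adjusted p = 9.3e-32 from edgeR). Exons of Aspn overlap exons of Cenpp, a centromere protein gene on the opposite strand, and whether the counting used strand is not given in the sources used here. Cenpp had 49 and 46 counts in sham and 193 and 170 after PNX, fewer than Aspn in every library.

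Lumican, fibromodulin, PRELP and osteomodulin belong to class II, whose members can carry keratan sulfate and bind fibrillar collagen. Lum, which encodes lumican, had 72.5 and 43.8 normalized counts in sham and 1148 and 1110 after PNX. This was the largest change among the 10 genes, 19.1-fold (log2 4.26, standard error 0.099, adjusted p = 7.8e-44 from edgeR), and 99.8% of all genes tested had a lower log2 fold change. The size rests on few sham counts, 80 and 43 before normalization. Without the first sham library the log2 fold change was 4.68 and without the second it was 3.96. Fmod, which encodes fibromodulin, had 423 and 412 normalized counts in sham and 528 and 542 after PNX, a rise of 1.28-fold (log2 0.35, standard error 0.072, adjusted p = 1.9e-05 from edgeR). Scaled to the pan-endothelial markers its log2 fold change was 0.61. The members of this class thus moved in both directions.

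Prelp, whose product anchors basement membranes to the underlying collagen, fell from 20052 and 20604 normalized counts in sham to 14609 and 14442 after PNX. It fell by 28.5% in group mean, which edgeR gave as -0.48 on the log2 scale with a standard error of 0.020 and an adjusted p of 5.4e-31. Omd, which encodes osteomodulin, a keratan sulfate proteoglycan best known from bone, had 116 and 104 normalized counts in sham and 65.8 and 69.1 after PNX. edgeR gave a log2 fold change of -0.71 with a standard error of 0.17 and an adjusted p of 0.00016. Both genes had fallen, and neither passed the fold threshold. With libraries scaled to the pan-endothelial markers the log2 fold changes were -0.22 for Prelp and -0.45 for Omd, and Omd no longer passed the test (adjusted p = 0.016 from edgeR). Omd also missed it in DESeq2's Wald test with all 4 libraries (adjusted p = 0.018).

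Osteoglycin, of class III, and podocan, of class V, complete the small leucine-rich genes. Ogn, which encodes osteoglycin (also called mimecan), fell from 15043 and 14535 normalized counts in sham to 10230 and 10065 after PNX. edgeR gave a log2 fold change of -0.54 with a standard error of 0.021 and an adjusted p of 6.9e-32. Under the pan-endothelial scaling its value was -0.28, and it still passed the test (adjusted p = 3.7e-10 from edgeR). Podn, which encodes podocan, had 987 and 1104 normalized counts in sham and 2397 and 2393 after PNX, a rise of 2.30-fold (log2 1.20, standard error 0.043, adjusted p = 8.2e-34 from edgeR). The means were 1045 ± 83.0 (SD, n = 2) in sham and 2395 ± 2.35 (SD, n = 2) after PNX, and both post-PNX libraries were above both sham libraries.

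**Figure D2:**
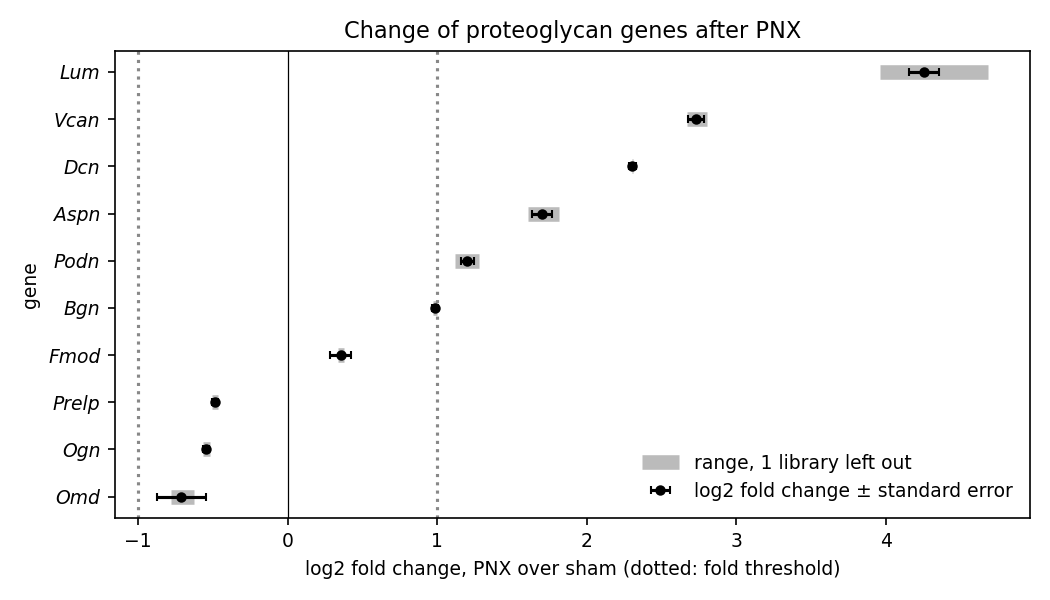
Log2 fold change of each proteoglycan gene after PNX with its standard error, the grey bar giving the range over fits that each left out 1 library and the dotted lines the fold threshold of 1. Dcn stayed between 2.30 and 2.31, Lum moved between 3.96 and 4.68, and no gene changed direction.

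Vcan, which encodes versican, had 353 and 321 normalized counts in sham and 2240 and 2256 after PNX. It rose 6.65-fold (log2 2.73, standard error 0.054, adjusted p = 1.0e-47 from edgeR), the second largest change of the 10 genes. Versican is made in splice forms that differ in the 2 large exons for the chondroitin sulfate attachment regions. Form V0 holds exon 7 (GAG-α) and exon 8 (GAG-β), V1 holds exon 8 alone, V2 exon 7 alone and V3 neither. The tables list all of them, and their lengths differ by exactly the 2880 bases of exon 7 and the 5217 bases of exon 8. In GRCm38 (mm10) exon 7 lies on chromosome 13 from 89702918 to 89705797 and exon 8 from 89688285 to 89693501, on the minus strand. Because the counts of these transcripts behave as if a read was counted for each transcript it overlapped, the difference between V0 and V1 was taken as the counts in exon 7 alone, and that between V0 and V2 as the counts in exon 8 alone.

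Exon 7 had 31 and 22 counts in sham and 105 and 117 after PNX, and the difference between V2 and V3, which measures the same exon, gave 34 and 22 in sham and 108 and 126 after PNX. Counts in exon 8 were 196 and 171 in sham and 1146 and 1068 after PNX. The exons of V3, which every one of these 4 forms shares, had 160 and 122 counts in sham and 1026 and 831 after PNX. After normalization these were rises of 4.62-fold in exon 7, 6.58-fold in exon 8 and 7.18-fold in the exons of V3. Per kilobase, exon 8 was covered at 0.93 to 1.16 times the exons of V3 in the 4 libraries, and exon 7 at 0.29 and 0.27 times in sham and 0.15 and 0.21 times after PNX. The GAG-β exon was thus covered about as deeply as the shared exons in both groups, and the GAG-α exon less deeply.

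Of the counts in both exons, exon 7 took 13.7% (95% exact Clopper-Pearson interval 9.47% to 18.8%) and 11.4% (7.28% to 16.7%) in sham, and 8.39% (6.92% to 10.1%) and 9.87% (8.23% to 11.7%) after PNX. The means were 12.5% ± 1.60 (SD, n = 2) and 9.13% ± 1.05 (SD, n = 2). These intervals cover counting error only. Both sham shares lay above both post-PNX shares, but an exact permutation test of 2 against 2 libraries cannot give a two-sided p below 0.333. That floor holds for every gene too, and the calls of genes rest on edgeR's count model instead. No such model was fitted to the share of exon 7, so no change in it is called. A shorter Vcan transcript of 3745 bases had 40 and 42 counts in sham and 276 and 212 after PNX.

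**Figure D3:**
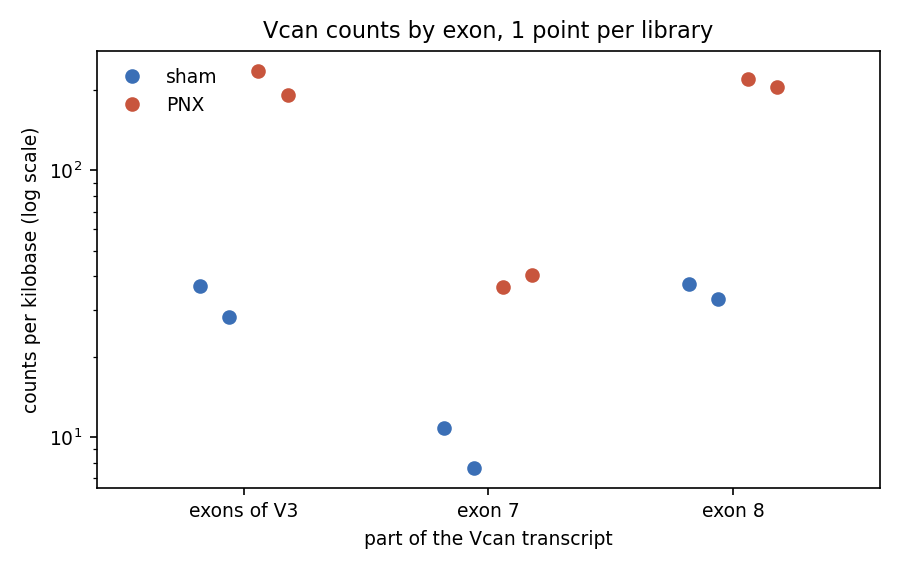
Counts per kilobase, on a log axis, in the exons of Vcan form V3, in exon 7 and in exon 8, with 1 point per library, sham in blue and PNX in red. Exon 8 sits at the height of the exons of V3 in both groups, and exon 7 lies lower, at 7.64 and 10.8 counts per kilobase in sham and 36.5 and 40.6 after PNX.

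Other genes with several transcripts in the tables gave almost the same counts for each of them. The 2 transcripts of Dcn had 3164 and 3124 counts in the first sham library and 14439 and 14250 in the first post-PNX library, the 2 of Aspn had equal counts in every library, and the 3 of Podn had between 1074 and 1089 counts in the first sham library. The choice of transcript therefore mattered little for these genes.

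Levels of different genes were compared as FPKM, which divides a transcript's counts by its length and by the library's total. In sham libraries Bgn was highest with 173 ± 2.38 FPKM (SD, n = 2), followed by Ogn with 80.4 and 77.8 FPKM in the 2 libraries, Prelp with 75.6 and 77.7, and Dcn with 20.6 ± 0.028 (SD, n = 2). Podn followed with 4.37 FPKM, then Fmod with 1.98, Aspn with 1.92, Omd with 0.853, Lum with 0.381 and Vcan with 0.368. Ogn and Prelp were 1.03-fold apart and their libraries nearly met, and the libraries of Fmod and Aspn overlapped, as did those of Lum and Vcan. For Vcan the FPKM was scaled to the 12432 bases of V0, and other forms would give other values.

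After PNX the order was Bgn with 344 ± 0.47 FPKM (SD, n = 2), Dcn with 102 ± 0.62 (SD, n = 2), Prelp with 55.1 ± 0.54 (SD, n = 2) and Ogn with 54.6 ± 0.73 (SD, n = 2). Podn had 10.1 FPKM, Lum 7.43, Aspn 6.32, Fmod 2.56, Vcan 2.47 and Omd 0.526. The libraries of Prelp and Ogn overlapped, and those of Fmod and Vcan lay close, 1.03-fold apart. Dcn moved from rank 4 to rank 2 and Lum from rank 9 to rank 6, while Omd became the lowest.

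Of the summed FPKM of the 10 genes, 358 and 360 in sham and 586 and 585 after PNX, Bgn took 48.1% ± 0.41 (SD, n = 2) in sham and 58.7% ± 0.20 (SD, n = 2) after PNX. The share of Dcn was 5.75% ± 0.038 (SD, n = 2) in sham and 17.5% ± 0.070 (SD, n = 2) after PNX. Ogn and Prelp together held a large part in sham, 22.0% and 21.4%, and 9.32% and 9.41% after PNX. Each of the other 6 genes held less than 2% in every library.

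**Figure D4:**
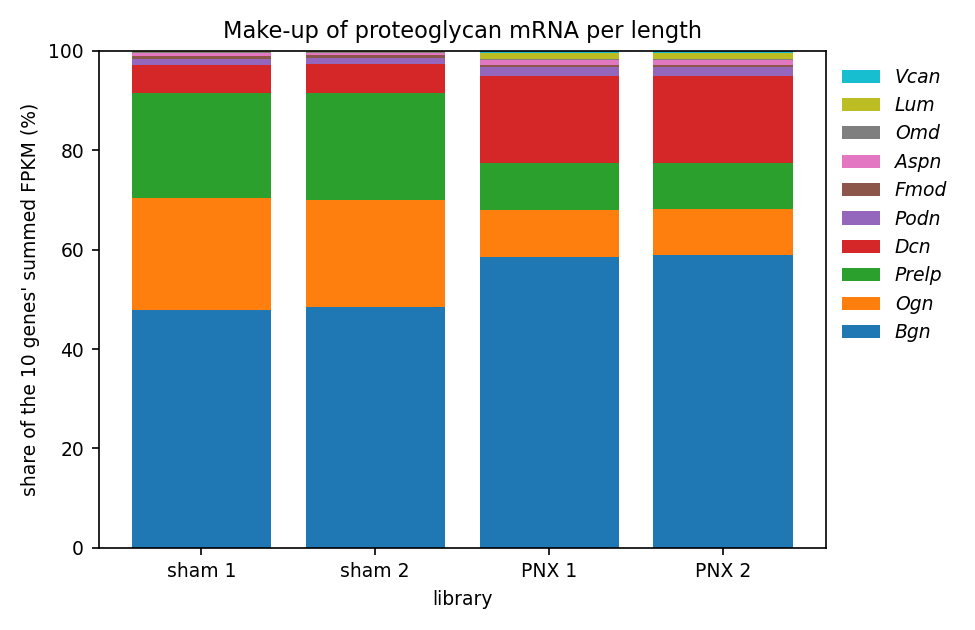
Share of each gene in the summed FPKM of the 10 proteoglycan genes, in percent, with 1 stacked bar per library and genes stacked from the highest in sham at the bottom. Bgn, in blue, holds 48.1% in sham and 58.7% after PNX on average, and Dcn, in red, 5.75% and 17.5%.

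Several of the 10 genes lie next to relatives in the genome (RefSeq, GRCm38.p6). Dcn is on chromosome 10 from 97479500 to 97518163 and Lum from 97565501 to 97572703, with no other protein-coding gene between them and Kera and Epyc follow next. Both Dcn and Lum rose, while Kera had 1, 0, 0 and 0 counts and Epyc 0 and 1 counts in sham and 7 in each post-PNX library, too few to be tested. Prelp, on chromosome 1 from 133910304 to 133930102, and Fmod, from 134037254 to 134048280, are also direct neighbours, and Prelp fell while Fmod rose. Optc, on the other side of Prelp, had between 4 and 13 counts and was not tested. Bgn lies on chromosome X from 73483601 to 73495936, Podn on chromosome 4 from 108014793 to 108031954 and Vcan on chromosome 13 from 89655309 to 89743027.

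On chromosome 13 Ecm2, Aspn, Omd and Ogn follow each other, and Cenpp overlaps Aspn, Omd and Ogn on the opposite strand. Whether Cenpp also overlaps Ecm2 was not looked at. Aspn runs from 49544443 to 49567565, Omd from 49582462 to 49592612 and Ogn from 49608015 to 49624501. Of these neighbours Aspn rose, and Omd, Ogn and Ecm2 fell, the last with a mean of 1462 normalized counts in sham and 1087 after PNX (log2 fold change -0.43, standard error 0.046, adjusted p = 2.0e-12 from edgeR). The start regions of the 3 members of this group are printed here because they lie side by side and moved apart. Each is 300 bases on the plus strand of GRCm38.p6 from RefSeq, from 250 bases before the gene's start to 50 after it, at chr13:49544193-49544492 for Aspn, chr13:49582212-49582511 for Omd and chr13:49607765-49608064 for Ogn. Capitals mark 4 motifs searched on both strands.
Aspn: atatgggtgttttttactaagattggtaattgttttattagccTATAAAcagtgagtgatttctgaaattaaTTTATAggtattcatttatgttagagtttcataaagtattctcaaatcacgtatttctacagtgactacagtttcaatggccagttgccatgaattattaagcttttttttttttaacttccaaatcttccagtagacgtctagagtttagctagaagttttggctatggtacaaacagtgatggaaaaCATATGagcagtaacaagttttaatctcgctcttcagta
Omd: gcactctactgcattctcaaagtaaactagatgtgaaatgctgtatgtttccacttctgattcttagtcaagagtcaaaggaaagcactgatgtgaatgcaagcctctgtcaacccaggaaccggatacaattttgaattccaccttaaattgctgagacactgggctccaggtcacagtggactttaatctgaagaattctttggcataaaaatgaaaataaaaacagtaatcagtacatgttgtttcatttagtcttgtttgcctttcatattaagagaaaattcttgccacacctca
Ogn: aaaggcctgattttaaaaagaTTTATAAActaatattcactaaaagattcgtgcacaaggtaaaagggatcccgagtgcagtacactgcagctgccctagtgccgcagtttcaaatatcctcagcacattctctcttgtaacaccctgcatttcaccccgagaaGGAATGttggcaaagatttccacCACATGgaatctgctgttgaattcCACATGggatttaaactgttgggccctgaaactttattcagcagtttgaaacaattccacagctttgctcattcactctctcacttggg

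The motifs were GGAATG, bound by TEAD factors, TGANTCA, bound by AP-1, CATNTG, an E-box form that Twist factors can bind, and TATAAA, the TATA box. Start regions were found for 8 of the 10 genes, 9 regions in all, but not for Dcn and Lum. The TEAD letters were in the region of Ogn alone, and in 14.7% of 32851 regions of this length. The AP-1 letters were in none of the 9 and in 7.81% of all regions. The E-box letters were in those of Aspn, Fmod, Ogn and 1 of the 2 of Podn, against 39.4% of all regions, and the TATA letters in those of Aspn and Ogn, against 13.6%. In Ogn 2 TATA matches on opposite strands overlap. A match is a run of letters and not a binding site, and the region of Omd held none of them.

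Of 38 other core proteins of proteoglycans and their link proteins, 28 had enough counts. Of these 5 were called higher and 2 lower, where 5.9% and 1.66% of all genes tested were. Their median log2 fold change was 0.16, beside 0.00 over all genes. Among the proteoglycans of basement membranes, Col15a1 rose from a mean of 839 to 3550 normalized counts (log2 fold change 2.08) and Col18a1 from 3696 to 9043 (log2 1.29), and perlecan, encoded by Hspg2, rose without passing the fold threshold (log2 0.89). Prg4, which encodes lubricin, rose from 506 to 2120 normalized counts (log2 2.07). Hapln1, a link protein that ties versican to hyaluronan, rose from 124 to 418 (log2 1.75), and Cspg4, which encodes the NG2 proteoglycan of pericytes, from 707 to 1446 (log2 1.03). The log2 fold change of Cspg4 was 0.97 without the first sham library and 0.998 without the second post-PNX library, both below the fold threshold. Esm1, which encodes endocan, a dermatan sulfate proteoglycan of ECs, fell from 1339 to 304 (log2 -2.14), and Nyx, a class IV relative, from 82.2 to 38.4 (log2 -1.11). Nyx was not called without the first post-PNX library (log2 -0.96) or when libraries were scaled to the pan-endothelial markers (log2 -0.85). Neither Cspg4 nor Nyx was called by glmTreat, which tests the change against the fold threshold. Hspg2 (log2 1.15) and Gpc3 (log2 1.03), a glypican, were called under the pan-endothelial scaling. Of the 9 other small leucine-rich genes and class relatives, 6 were tested, and 1 rose, 3 fell and 2 did not pass the test. Over all genes tested 29.3% rose and 27.8% fell.

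The enzymes that build the sugar chains of these proteins gave no call in edgeR or in DESeq2. Of 28 listed enzymes 27 were tested, and 11 rose and 7 fell at any fold, beside 29.3% and 27.8% of all genes tested. At an unadjusted p under 0.05 in edgeR there were 13 higher and 9 lower. At that threshold 5605 of the 16208 genes tested were higher and 5453 lower. The median log2 fold change was 0.03 and the range ran from -0.54 to 0.92. Chsy3, a chondroitin chain polymerase, rose from a mean of 157 to 296 normalized counts (log2 0.92), as did Chst5, a keratan sulfate sulfotransferase, from 60.4 to 108 (log2 0.85), and Dse, an epimerase that turns chondroitin into dermatan sulfate, from 1604 to 2330 (log2 0.54). Chst15, a chondroitin sulfotransferase, fell from 4141 to 2856 (log2 -0.54). Chsy3 was called without the second post-PNX library (log2 1.01), and Chst5 without the second sham library (log2 1.02). Both were also called with all 4 libraries under the pan-endothelial scaling (log2 1.18 and 1.11).

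Among 9 proteases that cleave versican or remove propeptides of small leucine-rich proteoglycans, 8 were tested. Adamts4 and Adamts9 were called higher, where 5.9% of all genes tested were. Adamts4, which cleaves versican and aggrecan, rose from a mean of 78.8 to 559 normalized counts (log2 fold change 2.82, standard error 0.11, adjusted p = 1.5e-32 from edgeR). Adamts9 rose from 2518 to 5045 (log2 1.004), just past the fold threshold. Without the first sham library or the first post-PNX library its log2 fold change was 0.98 in both cases, below that threshold. Bmp1, the protease that removes the propeptide of biglycan, rose from 3771 to 6324 without passing the fold threshold (log2 0.75), and was called under the pan-endothelial scaling (log2 1.01). Adamts1, the most abundant of the list, had 17915 and 18844 normalized counts (log2 0.07).

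Markers of fibroblasts, mesothelial cells, macrophages and monocytes, and pericytes and smooth muscle were higher after PNX. Those of epithelial cells and 10 of the 12 pan-endothelial markers were lower. The part of these cell types in these results was not tested. Of 12 fibroblast markers 10 rose and 1 fell, 5 were called higher, with a median log2 fold change of 0.69. Over all genes tested 29.3% rose, 27.8% fell and 5.9% were called higher. Their summed normalized count was 86160 and 86978 in sham and 276520 and 279915 after PNX, a ratio of 3.21, and none was at or under 3 counts in every library. Col3a1, the most abundant of them, rose from a mean of 18233 to 88244. Pdgfra and Tcf21 were the only markers of the list that did not rise, with log2 fold changes of -0.23 and 0.02. Tcf21 did not pass the test (adjusted p = 0.68 from edgeR). The markers that rose without being called had log2 fold changes between 0.43 and 0.71. Set against the summed fibroblast markers, Dcn was 3.33% and 3.29% of their counts in sham and 5.13% and 5.04% after PNX, and Vcan 0.41% and 0.37% in sham and 0.81% in both post-PNX libraries. Lum was 0.084% and 0.050% in sham and 0.42% and 0.40% after PNX. Aspn was 0.41% and 0.35% in sham and 0.37% and 0.40% after PNX, where the groups overlap. Bgn, at 34.9% and 35.2% in sham and 21.7% and 21.5% after PNX, was lower by this measure, as were Podn, Fmod, Ogn, Prelp and Omd. The sum is carried by the collagen genes Col1a1, Col1a2 and Col3a1 and by Mfap4, with log2 fold changes between 1.65 and 2.34. Beside the median of the list (0.69), or beside Pdgfra and Tcf21, Bgn (0.99) and Podn (1.20) had the higher log2 fold changes. Fmod (0.35) was above Pdgfra and Tcf21 and below the median. Dcn (2.30) was above Col3a1 (2.27) and below Col1a1 (2.34). Aspn (1.70) was above the median and Mfap4 (1.65), and below Col1a1, Col1a2 and Col3a1. The direction for Bgn, Podn, Fmod, Dcn and Aspn thus depends on the markers they are set against.

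Mesothelial markers were higher too, 5 of 7 tested being called, with summed normalized counts of 11669 and 11799 in sham and 24287 and 24705 after PNX. Msln, which encodes mesothelin, had the most counts over the 4 libraries, with means of 2232 in sham and 8744 after PNX, although Krt19 was higher in sham (4323). Of 11 macrophage and monocyte markers 6 were called higher, with sums of 93658 and 92802 in sham and 255546 and 250939 after PNX. Chil3, a product of alveolar macrophages, led that list with means of 66367 and 187941. The 10 markers of pericytes and smooth muscle had sums of 24885 and 25058 in sham and 33209 and 32971 after PNX, and 1 was called. Pdgfrb, the PDGF receptor of pericytes, led it with 5913 and 7153. The 4 pan-leukocyte markers had sums between 33061 and 34661 in the 4 libraries, of which 2 rose and 1 fell at any fold, and Laptm5 led with 13128 and 14670. All 7 epithelial markers fell, 1 of them called lower, and their sums were 420381 and 422721 in sham and 254335 and 251338 after PNX. No marker of these lists was at or under 3 counts in every library. Beside the counts of these lists, 29.3% of all genes tested rose and 27.8% fell, and 5.9% were called higher and 1.66% lower.

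**Figure D5:**
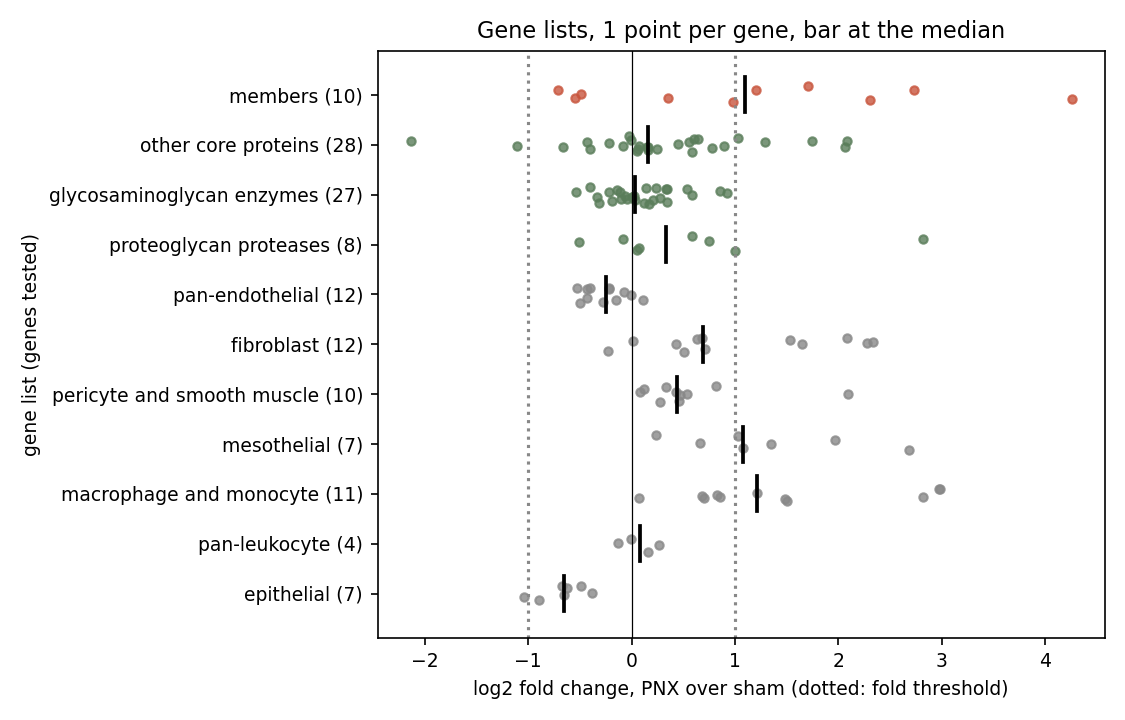
Log2 fold changes after PNX in the 10 proteoglycan genes (members), in 3 lists of related genes and in 7 lists of cell type markers, with 1 point per gene tested, a black bar at each median and dotted lines at the fold threshold. The median is 1.09 for the 10 genes, 0.03 for the glycosaminoglycan enzymes and 0.69 for the fibroblast markers.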

How the data were processed

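The authors deposited, for each of the 4 libraries, read counts on 33068 RefSeq transcripts without normalization, together with FPKM values, which the authors scaled to transcript length and to the total over all transcripts. The kit used marks the strand of mRNA, and paired-end reads were aligned to mm10. STAR is named in the submitters' processing notes, and the counting program is not given in the sources used here. The deposited TPM values were not used.

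By the values, a read was counted for each transcript of a gene that it overlapped, so the transcript whose counts summed highest across all libraries stood for its symbol. The fit used edgeR 4.0.16 under R 4.3.3. Low genes were removed with filterByExpr, TMM factors lay between 0.998 and 1.003, and PNX was compared with sham by the quasi-likelihood F test without covariates, with Benjamini-Hochberg adjustment over the 16208 genes kept. Standard errors were obtained by dividing the log2 fold change by √F. A call required an adjusted p below 0.01 together with a log2 fold change above 1 or below -1, the thresholds the study used. For display, counts were normalized to a mean effective library of 46082031. The steps were tested on simulated data.

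All 10 genes are described with their values in every library. Of the 3 related lists the called genes and the genomic neighbours were to be named, and of the marker lists the most abundant gene and those at 3 counts or fewer. Pecam1, Cdh5 and Ptprc were named as sorting markers. Hspg2, Chsy3, Dse, Chst15, Chst5, Bmp1, Adamts1, Gpc3, Pdgfra, Tcf21, Col1a1, Col1a2, Mfap4, Krt19, Xist and Cenpp fall outside this rule and were chosen after their values were seen. The 10 genes and the lists were chosen with earlier results of these data known. Emr1 stands for Adgre1 in the tables, and Muc16 was not found among the symbols. Alternatives were DESeq2 1.42.0 (Wald test or size factors), library size alone, scaling to pan-endothelial markers, no filter, a mean of at least 50 counts, glmTreat, the replicate number as a block, sums over transcripts, no fold threshold, and each library left out in turn.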

Additional observations from a re-analysis of the deposited data

How the results depend on the processing

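Between 5 and 7 of the 10 proteoglycan genes were called higher under the alternatives listed, and all 140 values obtained kept the direction reported. The values from glmTreat and from the setting without a fold threshold repeat the fold changes reported above, so their direction was fixed. Among the alternatives with a fold threshold Bgn passed it only when libraries were scaled to the 12 pan-endothelial markers, which shifted the median of all genes by 0.26 on the log2 scale. Under that scaling 1323 genes were called higher and 84 lower, 94.0% higher, in place of 957 and 269, 78.1% higher, and 2 glycosaminoglycan enzymes were called in place of 0, 3 proteases in place of 2 and 8 other core proteins in place of 7. A mean of at least 50 counts gave 160 genes called lower. With glmTreat, which tests whether the change exceeds the fold threshold, 604 genes were called higher and 39 lower, with 1 protease in place of 2 and 5 other core proteins in place of 7. Without a fold threshold the numbers were 3 of the 10 genes lower, 4745 genes higher, 4513 lower, 21 other core proteins, 18 enzymes and 5 proteases, since the rule then asks for less. Leaving out single libraries, between 1 and 2 proteases and between 0 and 1 enzymes were called. Without the filter on low counts Epyc was called, on counts of 7 or fewer per library.

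The titles give the groups the same replicate numbers, but the libraries come from different mice, and deviations of same-numbered libraries correlated at 0.027 over 14298 genes. With the replicate block 957 genes were called higher and 272 lower, and Dcn had a log2 fold change of 2.30. For genes such as Lum and Omd, with 43 to 128 counts in a sham library, depth limits how well the size of the change is known. With 2 libraries per group, leaving one out assumes that the lone library varies like the others.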
